A study of Mus musculus with 6 samples.

Results

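The 7 genes described here make, package, take up and break down gamma-aminobutyric acid (GABA), the main inhibitory transmitter of the forebrain. They were chosen by name: Gad1, Gad2, Slc32a1, Slc6a11, Slc6a13, Abat and Aldh5a1. Each symbol had 1 row among the 53715 genes of the count table, and all 7 passed the filter on low counts that left 16721 genes for testing. Bulk poly(A) RNA of mouse piriform cortex, the olfactory cortex at the ventral edge of the forebrain, was sequenced in 6 libraries. The Caspase3 group (n = 3) came from Gad2-Cre mice given AAV-DIO-Caspase3, a virus that delivers the cell-death protease caspase 3 only where Cre recombinase is made. The GFP group (n = 3) came from Gad2-Cre mice given AAV-DIO-GFP, which delivers green fluorescent protein in its place. The study used the caspase virus to model loss of Gad2 neurons in work on seizures. Both groups carried the Cre allele and received a stereotaxic injection on 1 side. Age, sex, the interval after injection, the sampled hemisphere and how Cre was placed at Gad2 are not given in the labels. Whether each library was a separate animal is not stated either, and the p-values reflect variation between libraries that may be partly technical.

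As background, GABAergic neurons decarboxylate glutamate to GABA with 2 enzymes that use pyridoxal phosphate. Gad1 encodes the enzyme found throughout the cell, which supplies most basal GABA, and Gad2 the enzyme anchored to membranes at nerve terminals. The vesicular transporter encoded by Slc32a1 loads GABA, and glycine, into synaptic vesicles. After release, plasma membrane transporters of the SLC6 family clear GABA. Among them, Slc6a11 encodes a transporter of astrocytes and Slc6a13 one that in mouse brain is found mainly in the leptomeninges and around vessels. In mitochondria, the transaminase encoded by Abat converts GABA to succinic semialdehyde, which the dehydrogenase encoded by Aldh5a1 oxidises to succinate for the citric acid cycle. Synthesis and packaging genes are thus marks of GABAergic neurons, whereas uptake and breakdown genes are also used by glia and other cells.

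The 3 genes that mark GABAergic neurons lie on chromosome 2 and had the lowest log2 fold changes of the 7 members, so their upstream sequences are shown. Among them only Gad2 passed the test described below. RefSeq (GRCm38.p6) has a window for 6 of the 7 members, from 250 bases before to 50 after an annotated start, and the 250 upstream bases are printed 5′ to 3′ on the + strand. They lie at chr2:22622077-22622326 for Gad2, chr2:70561879-70562128 for Gad1 and chr2:158610508-158610757 for Slc32a1. Capitals mark matches to CANNTG, the E-box bound by helix-loop-helix factors, and to the joined core of the RE1 element, AGCACC followed after any 2 bases by GGACAGNGC. RE1 is the site of REST, a repressor of neuronal genes in non-neuronal cells.
Gad2: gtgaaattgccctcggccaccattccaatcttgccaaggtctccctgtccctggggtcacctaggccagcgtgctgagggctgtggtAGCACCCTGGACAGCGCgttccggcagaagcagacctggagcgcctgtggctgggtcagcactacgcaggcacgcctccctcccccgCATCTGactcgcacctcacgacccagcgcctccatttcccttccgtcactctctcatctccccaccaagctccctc
Gad1: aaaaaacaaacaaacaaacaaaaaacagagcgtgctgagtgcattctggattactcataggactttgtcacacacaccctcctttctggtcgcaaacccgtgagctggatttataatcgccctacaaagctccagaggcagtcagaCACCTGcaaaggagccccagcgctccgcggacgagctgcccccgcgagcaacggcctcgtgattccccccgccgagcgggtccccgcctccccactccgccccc
Slc32a1: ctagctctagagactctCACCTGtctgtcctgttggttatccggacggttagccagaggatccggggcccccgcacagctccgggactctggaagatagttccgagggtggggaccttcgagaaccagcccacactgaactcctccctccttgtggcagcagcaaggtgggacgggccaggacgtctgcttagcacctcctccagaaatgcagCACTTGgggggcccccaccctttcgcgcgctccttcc
The RE1 core was searched after the sequences had been read, so the share of windows that hold it is no test. Both strands of the whole 300-base windows were searched. The Gad2 window held it at bases 88 to 104 and is 1 of 6 windows among all 32851 (0.0183%) that do, with no other member among them. An E-box stood once in the Gad2 window, once in the Gad1 window and at 2 places in the Slc32a1 window, and 72.3% of all windows hold one. The homeodomain palindrome TAATTA (5.29% of windows) and the full cyclic AMP response element TGACGTCA (1.79%) were in no window of a member. TATAAA (13.6%) stood in the Gad1 window alone, on the opposite strand. GC content was 61.3% for Gad2, 60.0% for Gad1 and 63.3% for Slc32a1, against a median of 52.7% and a 75th percentile of 61.7% over all windows. These matches describe letters, not bound sites. The table's Gad1 gene starts at 70553072, so its RefSeq window lies within the gene's annotated span. The Gad2 gene starts at 22622205, inside its printed stretch, so the bases from there on, with the marked E-box, lie within the annotated gene. The Slc32a1 gene starts at 158610767, after its printed bases.

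Total counts ranged from 20424581 to 24227361 in Caspase3 libraries and from 22101015 to 26268377 in GFP libraries, where 3 counts equal 0.118 to 0.142 CPM (read counts scaled to library size). Cortical identity was present in every library: Slc17a7, the vesicular glutamate transporter of cortical excitatory neurons, stood at 780 to 1221 CPM. GFP replicate 3 stood apart in its neuronal markers. Its summed level of 12 glutamatergic neuron markers was the lowest, at 4428 CPM. That sum was 5565 and 5489 CPM in GFP replicates 1 and 2 and 4714 to 5065 CPM in the Caspase3 group. The summed level of 15 striatal projection neuron markers was 401 to 425 CPM in the Caspase3 group, against 542, 426 and 1677.5 CPM in GFP replicates 1, 2 and 3. These neurons use GABA as well. Microglial markers also moved with the groups, at 582 to 829 CPM in sum in Caspase3 libraries and 309 to 372 CPM in GFP libraries, and 6 of 8 rose (2 without GFP replicate 3). Their part in the results on the members was not tested. Results are therefore also given without GFP replicate 3 where this matters.

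Of the 7 members, 1 passed the test, and it fell: Gad2. Of all genes tested, 1.64% passed in either direction and 0.114% were lower in the Caspase3 group. CPM values did not overlap between groups for 4 members, Gad2, Gad1, Slc32a1 and Aldh5a1, all lower in the Caspase3 group. The same held in that direction for 6.29% of all genes tested, and in either direction for 15.2%. The median log2 fold change was -0.40 over the 7 members and -0.0011 over all genes tested. With 7 genes that share pathways and cells, these counts are descriptive.

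**Figure D1:**
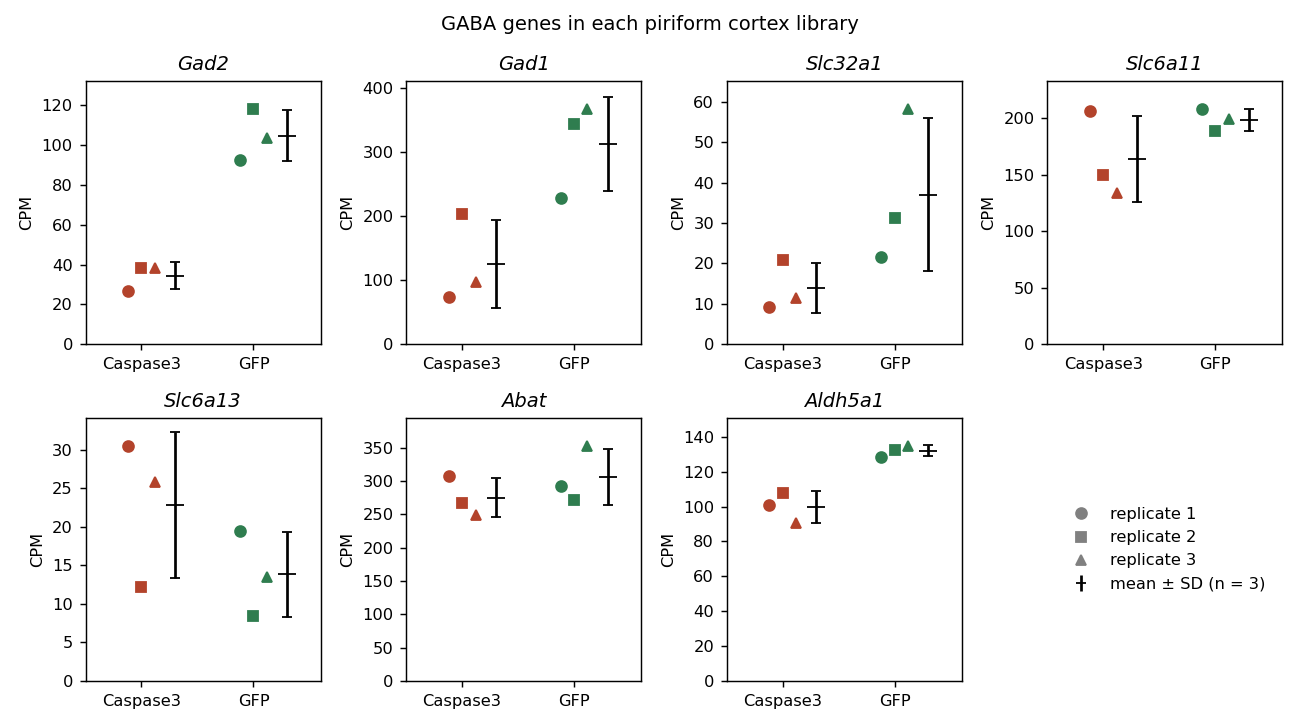
CPM of each of the 7 GABA genes (vertical axes, from 0) in the Caspase3 and GFP libraries, with 1 symbol per replicate number and the group mean ± SD at the side (n = 3 per group). Gad2, Gad1, Slc32a1 and Aldh5a1 show no overlap between groups, while Slc6a11, Slc6a13 and Abat do.

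The synthesis gene tied to nerve terminals showed the tightest separation of the neuronal members. Gad2 (ENSMUSG00000026787, chromosome 2, 22622205 to 22693874) had 26.7, 38.5 and 38.0 CPM in Caspase3 replicates 1, 2 and 3, against 92.4, 118 and 103.7 CPM in GFP replicates 1, 2 and 3. Each Caspase3 library thus held 25.5% to 36.8% of the GFP mean, and Caspase3 replicate 1 was the lowest. The log2 fold change was -1.60 ± 0.15 (SE), a 3.04-fold lower level, and it passed edgeR's quasi-likelihood test (adjusted p = 0.00371). By p-value Gad2 ranked 6 among the 16721 genes, and 38 genes had a lower log2 fold change. It passed in every fit tried, with log2 fold changes between -1.69 and -1.45. The closest approach to the threshold came without GFP replicate 2 (adjusted p = 0.0494). In bulk tissue, fewer cells of a type and less RNA per cell cannot be told apart.

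Gad1, the other synthesis gene, was lower on average but more scattered. Gad1 (ENSMUSG00000070880, chromosome 2, 70553072 to 70602014) had 74.4, 203 and 97.7 CPM in the 3 Caspase3 libraries, against 229, 343 and 367 CPM in the 3 GFP libraries. Caspase3 replicate 2 lay just under GFP replicate 1, and the coefficient of variation within the Caspase3 group was 54.8% for Gad1 against 19.4% for Gad2. The log2 fold change of -1.32 ± 0.34 did not pass (adjusted p = 0.13 in edgeR). It did pass without Caspase3 replicate 2 (log2 fold change -1.86, adjusted p = 0.013). The processed pseudogene Gad1-ps on chromosome 10 had 2 to 13 counts per library, against Gad1 counts of 1570 or more. How reads matching both were counted is not given, and an effect of the pseudogene on Gad1 counts was not tested.

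The packaging gene followed Gad1 more closely than Gad2. Slc32a1 (ENSMUSG00000037771, chromosome 2, 158610767 to 158615748) had 9.24, 20.9 and 11.5 CPM in the Caspase3 libraries, against 21.7, 31.3 and 58.2 CPM in the GFP libraries. Caspase3 replicate 2 and GFP replicate 1 almost met, and GFP replicate 3 was far above the other GFP libraries. The log2 fold change was -1.42 ± 0.39 (adjusted p = 0.163 in edgeR). It was -0.94 (adjusted p = 0.34) without GFP replicate 3, the library rich in striatal transcripts, and -0.71 (adjusted p = 0.286) without both that library and Caspase3 replicate 1. For Gad2 the values in those 2 fits were -1.62 and -1.46, and for Gad1 -1.20 and -0.93. The part of striatal RNA in the Slc32a1 difference was not tested. Slc32a1 shares 697 exonic bases with the antisense gene Gm14205, which had 4 counts over all libraries.

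**Figure D2:**
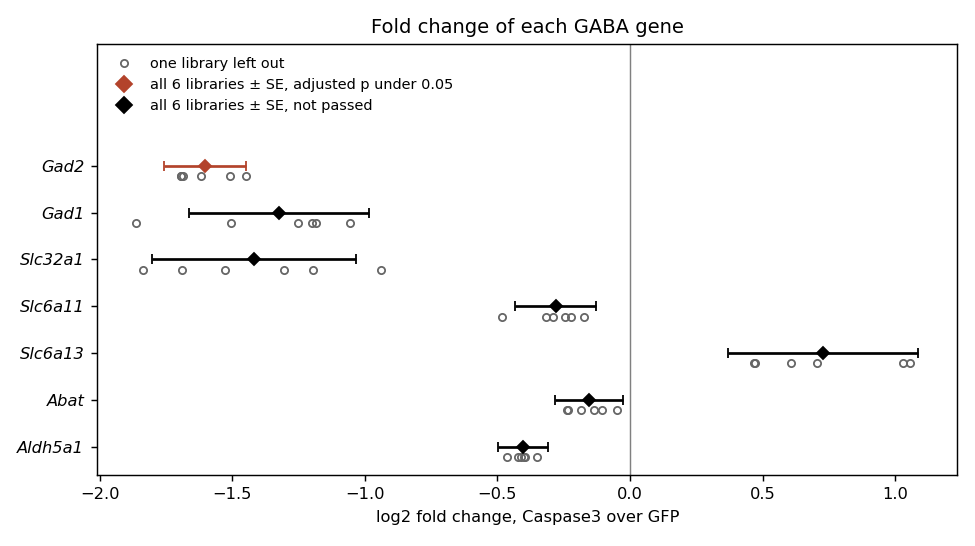
Log2 fold change, Caspase3 over GFP (horizontal axis), of each gene over all 6 libraries with its SE (diamonds) and with 1 library left out at a time (open circles). Gad2 ranges from -1.69 to -1.45 across the open circles, while Gad1 ranges from -1.86 to -1.06 and Slc32a1 from -1.84 to -0.94.

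Whether these 3 neuronal genes differed by unequal amounts was tested on their ratios within each library. The FPKM ratio of Gad2 to Gad1 was 0.467, 0.247 and 0.506 in the Caspase3 libraries, against 0.525, 0.447 and 0.367 in the GFP libraries. Groups overlapped, and the log2 ratio differed by -0.19 (exact two-sided permutation test, p = 0.8, n = 3 each). The ratio of Gad2 to Slc32a1 was 1.38, 0.876 and 1.58 in Caspase3 libraries, against 2.03, 1.80 and 0.848 in GFP libraries (difference of log2 ratios -0.23, exact permutation p = 0.6). That of Gad1 to Slc32a1 was 2.95, 3.55 and 3.12 in Caspase3 libraries, against 3.87, 4.01 and 2.31 in GFP libraries (difference -0.045, exact permutation p = 0.9). None of the 3 ratios passed, the adjusted p over the 3 was 0.9 for each, and with 3 against 3 libraries no p can go below 0.1. A larger fall of Gad2 than of Gad1 or Slc32a1 was therefore not shown. Per library, the lowest Gad2 to Gad1 ratio belonged to Caspase3 replicate 2, where Gad1 was at 64.8% and Gad2 at 36.8% of the GFP mean.

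The 3 genes were also set beside other transcripts of GABAergic neurons. The summed level of 19 lineage and interneuron markers was 301, 452 and 371 CPM in the Caspase3 libraries, against 458, 611 and 599 CPM in the GFP libraries. None of the 18 tested markers passed, 17 had negative log2 fold changes, and their median was -0.73 (range -2.34 to 0.23). Some were highest in GFP replicate 3, among them the lineage RNA Dlx6os1, with 3.98, 10.2 and 5.68 CPM in Caspase3 libraries, against 14.8, 13.8 and 40.7 CPM in GFP libraries. Without that library none of the 18 passed, 17 were negative and the median was -0.64. Relative to that sum, Gad2 stood at 8.88%, 8.52% and 10.2% in Caspase3 libraries, against 20.2%, 19.3% and 17.3% in GFP libraries. Gad1 stood at 24.7%, 44.9% and 26.3% in Caspase3 libraries, against 50.0%, 56.1% and 61.2% in GFP libraries. Slc32a1 stood at 3.07%, 4.62% and 3.09% in Caspase3 libraries, against 4.73%, 5.12% and 9.71% in GFP libraries. All 3 genes were thus lower relative to this marker sum in every Caspase3 library than in any GFP library. This concerns the sum and not each marker, since Dlx5 (-2.34) had a lower log2 fold change than any of the 3 genes. Relative to the striatal marker sum the groups overlapped for Slc32a1, at 2.17%, 5.22% and 2.71% in Caspase3 libraries, against 4.0%, 7.35% and 3.47% in GFP libraries. The sum leans on abundant genes that other neurons also use, such as the potassium channel Kcnc1 at 124 to 132 CPM in Caspase3 and 139 to 166 CPM in GFP libraries, so this is a description without a test.

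Neither uptake gene passed. Slc6a11 (ENSMUSG00000030307, chromosome 6, 114131241 to 114249952), the astrocytic GABA transporter, had 206, 149.9 and 133.9 CPM in Caspase3 libraries, against 208, 188 and 199 CPM in GFP libraries. Caspase3 replicate 1 lay at the GFP level and the other 2 Caspase3 libraries below every GFP library. The log2 fold change was -0.28 ± 0.15 (adjusted p = 0.577 in edgeR), and -0.48 (adjusted p = 0.0529) without Caspase3 replicate 1. The sum of 12 astrocyte markers was 12399.5, 11580.0 and 9423 CPM in Caspase3 libraries, against 12936, 10409 and 11129.5 CPM in GFP libraries. As a share of it, Slc6a11 was 1.66%, 1.29% and 1.42% in Caspase3 libraries and 1.61%, 1.81% and 1.79% in GFP libraries. Of those 12 markers only Gfap, the astrocyte intermediate filament, changed, and it rose.

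Slc6a13 was the 1 member with a positive log2 fold change, and its level varied with a sum of leptomeningeal markers. Slc6a13 (ENSMUSG00000030108, chromosome 6, 121300227 to 121337733) had 30.5, 12.1 and 25.8 CPM in Caspase3 libraries, against 19.4, 8.43 and 13.5 CPM in GFP libraries. The groups overlapped, since Caspase3 replicate 2 lay below 2 of the GFP libraries (log2 fold change 0.73 ± 0.36, adjusted p = 0.53 in edgeR). The sum of 14 leptomeningeal and fibroblast markers, among them Dcn and Col1a2, was 415, 149.6 and 328 CPM in Caspase3 libraries, against 235, 119 and 184 CPM in GFP libraries. The 6 libraries thus stood in the same order by Slc6a13 and by this sum. Slc6a13 amounted to 7.34%, 8.12% and 7.86% of the sum in Caspase3 libraries and 8.27%, 7.10% and 7.34% in GFP libraries. None of the 14 markers passed, all 14 had positive log2 fold changes, and their median was 0.76. The part of leptomeningeal content in the Slc6a13 difference was not tested. The 8 choroid plexus markers summed to 9.15, 13.7 and 18.1 CPM in Caspase3 libraries, against 8.62, 6.26 and 17.4 CPM in GFP libraries, and none of the 4 tested passed. Of these markers, Otx2 was at 0 in every library and Ttr reached at most 0.569 CPM. Kl had 5.50, 12.2 and 15.1 CPM in Caspase3 libraries, against 5.45, 5.07 and 4.70 CPM in GFP libraries, and Clic6 reached 10.9 CPM in GFP replicate 3.

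**Figure D3:**
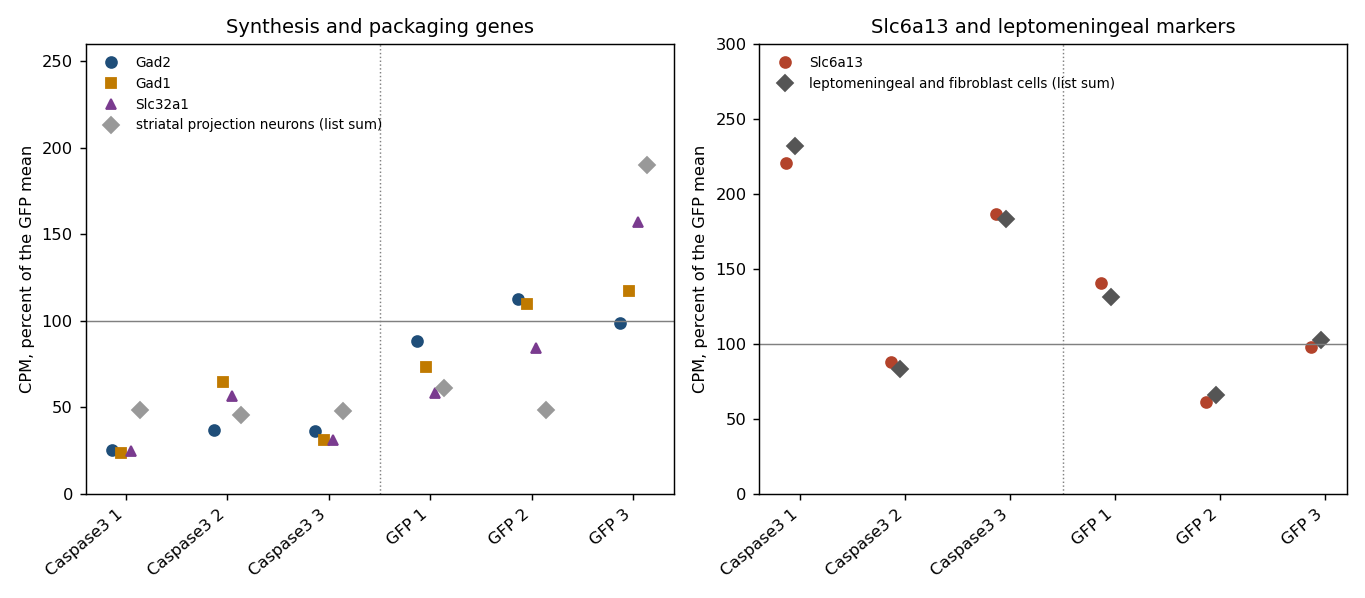
CPM in each library as a percent of the GFP mean, for Gad2, Gad1, Slc32a1 and the summed striatal markers (left) and for Slc6a13 and the summed leptomeningeal markers (right). In GFP replicate 3 the striatal sum reached 190% and Slc32a1 157% of the GFP mean while Gad2 stood at 99.0%, and Slc6a13 lay beside the leptomeningeal sum in all 6 libraries.

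The breakdown genes had small log2 fold changes, and neither passed in edgeR. Abat (ENSMUSG00000057880, chromosome 16, 8513429 to 8621568), the transaminase that starts GABA breakdown, had 307, 268 and 249.5 CPM in Caspase3 libraries, against 293, 272 and 353 CPM in GFP libraries. The groups overlapped (log2 fold change -0.15 ± 0.13, adjusted p = 0.737 in edgeR). Aldh5a1 (ENSMUSG00000035936, chromosome 13, 24907579 to 24937661, minus strand), the next enzyme, had 100.9, 108 and 90.3 CPM in Caspase3 libraries, against 129, 132 and 135 CPM in GFP libraries. All 3 Caspase3 libraries lay below all 3 GFP libraries, which agreed to within a coefficient of variation of 2.34%. The log2 fold change was -0.40 ± 0.094, a level 1.32-fold lower, and it missed the threshold (adjusted p = 0.0934 in edgeR). DESeq2 passed it (adjusted p = 0.0218). Aldh5a1 shares 796 exonic bases with 4932702P03Rik and 203 with 9330162012Rik, both on the other strand, which had 68 and 246 counts over all libraries, and Aldh5a1 had at least 2130 counts in each library.

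Levels were compared between genes per gene length, on the deposited FPKM scale (reads scaled to gene length and library size). In the Caspase3 group Abat (35.1 ± 3.55 FPKM, SD, n = 3) and Slc6a11 (32.0 ± 7.24) stood highest, followed by Aldh5a1 (17.5 ± 1.62) and Gad1 (16.2 ± 9.01). Slc6a13 (7.76 ± 3.20), Gad2 (5.81 ± 1.16) and Slc32a1 (4.92 ± 2.23) stood lowest, and ranges of neighbours in this order overlapped except between Slc6a11 and Aldh5a1. In the GFP group Gad1 (40.9 ± 9.64), Abat (39.4 ± 5.21) and Slc6a11 (39.2 ± 1.77) overlapped at the top. Aldh5a1 (23.3 ± 0.542) stood below all of their libraries and above Gad2 (17.8 ± 2.26). Gad2 and Slc32a1 (13.2 ± 6.71) overlapped, and Slc6a13 (4.74 ± 1.88) was below every Slc32a1 library. Gad1 was thus at 9.57, 26.5 and 12.7 FPKM in Caspase3 libraries, below Abat in each, against 29.9, 45.1 and 47.7 FPKM in GFP libraries, above Abat in 2 of 3.

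**Figure D4:**
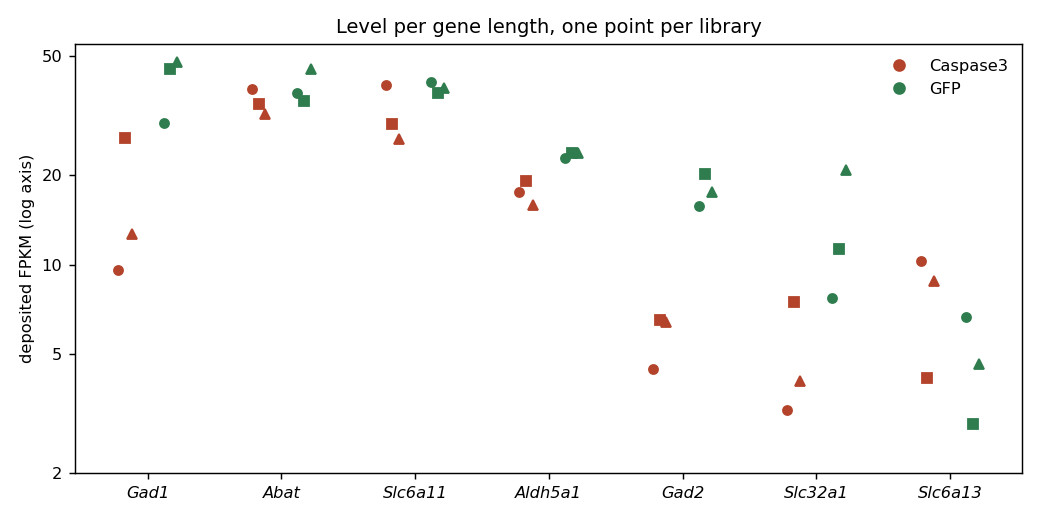
Deposited FPKM (log axis) of the 7 genes, with 1 point per library, Caspase3 left and GFP right within each gene, and genes ordered by the GFP mean. Abat, Slc6a11 and Slc6a13 overlap between groups, while Gad2 lies between 4.47 and 6.54 FPKM in Caspase3 libraries and between 15.7 and 20.2 FPKM in GFP libraries.

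The members were also compared among themselves by their pattern over the 6 libraries. Likeness was measured as the root mean square difference of log2 CPM, centred per gene, where 0 means an identical pattern. Gad1 and Slc32a1 differed by 0.27, Gad1 and Gad2 by 0.37 and Gad2 and Slc32a1 by 0.48. Abat, Aldh5a1 and Slc6a11 differed from each other by 0.16 to 0.19. Genes that vary little lie close on this unscaled measure even where their patterns differ. Caspase3 replicate 1, for example, held 104% of the GFP mean for Slc6a11 and 76.5% for Aldh5a1. Slc6a13 differed from every other member by 0.66 to 1.45. Because the measure includes the group difference, it does not separate it from variation within groups.

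By the same measure, 10842 genes averaging at least 5 CPM were ranked for likeness to each neuronal member. The ranking used these same 6 libraries, so a shared pattern or fall among the nearest genes follows in part from the choice. Nearest to Gad2 was Apold1, an endothelial early-response gene (difference 0.27). Apold1 had 8.24, 8.96 and 8.76 CPM in Caspase3 libraries, against 17.8, 21.0 and 19.7 CPM in GFP libraries, and it fell (log2 fold change -1.17 ± 0.12, adjusted p = 0.00405). Next came Egr2, an activity-regulated transcription factor, at 0.34, which also fell (log2 fold change -1.03, adjusted p = 0.0315). Col19a1, a collagen chain, the receptor tyrosine kinase Kit and Lamp5, a marker of an interneuron class, followed at 0.37 to 0.42 and did not pass. Apold1 passed with any 1 library left out, whereas Egr2 missed the threshold without Caspase3 replicate 2, GFP replicate 1 or GFP replicate 2 (adjusted p = 0.0811, 0.0997 and 0.155).

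Nearest to Gad1 were Oprk1, the kappa opioid receptor (0.24), and Erbb4, the neuregulin receptor of interneurons (0.25). Erbb4 had 39.5, 111.7 and 56.6 CPM in Caspase3 libraries, against 108, 127 and 142 CPM in GFP libraries. Its Caspase3 replicate 2 lay near the GFP level, which the choice by likeness to Gad1 favours and which is no separate observation. Galntl6, Col19a1 and Nr4a3 followed at 0.32 to 0.37. Nearest to Slc32a1 was Kcnab1, a potassium channel beta subunit (0.17), with 14.1, 29.4 and 20.4 CPM in Caspase3 libraries, against 28.7, 40.7 and 99.2 CPM in GFP libraries. Dlx6os1, an RNA transcribed opposite Dlx6, Sema3e, Sv2c and Erbb4 followed at 0.28 to 0.37. None of the genes named as nearest to Gad1 or Slc32a1 passed the test (adjusted p = 0.133 to 0.556 in edgeR).

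Other genes that feed, serve or resemble this pathway were followed in 6 lists. None of the 40 tested genes passed in either direction, and 4 had an unadjusted p under 0.05, against 10.6% of all genes tested. Among 11 genes of glutamate and glutamine supply the median log2 fold change was -0.14. The lowest p belonged to Slc1a1, a neuronal glutamate transporter, with 70.8 ± 4.12 CPM in Caspase3 and 88.7 ± 11.6 CPM in GFP libraries (log2 fold change -0.33, adjusted p = 0.303). Slc38a1, a glutamine carrier of GABAergic and other neurons, had 206 ± 5.04 and 243 ± 21.2 CPM in Caspase3 and GFP libraries (-0.24, adjusted p = 0.419). Among 9 genes around the GABA shunt and the putrescine route, the median was -0.044, and the lowest p values belonged to Ogdh (log2 fold change -0.18) and Odc1 (0.12). Ogdh encodes a subunit of the oxoglutarate dehydrogenase that the shunt bypasses, and Odc1 makes putrescine.

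Cofactor and partner genes stood close to 0 as well. In pyridoxal phosphate supply, the phosphatase gene Pdxp had a log2 fold change of -0.13 and the kinase gene Pdxk one of -0.089 (adjusted p = 0.784 and 0.813). The 4 genes for palmitoylation and chaperoning of GAD had values of -0.16 to -0.025, led by Dnajc5, a vesicle co-chaperone, and Zdhhc17, a palmitoyltransferase that acts on the Gad2 product. Of 8 other vesicular transporter genes 5 were tested, with a median of 0.056. Slc17a6, a glutamate transporter, had 25.8, 46.5 and 62.8 CPM in Caspase3 libraries, against 33.8, 33.6 and 28.2 CPM in GFP libraries (log2 fold change 0.50, adjusted p = 0.559). Slc18a2, the monoamine transporter, had 7.11, 8.05 and 9.78 CPM in Caspase3 libraries, against 9.46, 10.6 and 9.93 CPM in GFP libraries (-0.26, adjusted p = 0.602).

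In the SLC6 family, to which the uptake genes belong, 8 relatives were tested with a median log2 fold change of -0.0025. The lowest p belonged to Slc6a5, the neuronal transporter of glycine, which the Slc32a1 product also loads into vesicles. Slc6a5 had 0.569, 52.7 and 23.1 CPM in Caspase3 libraries, against 0.0932, 0.0396 and 0.307 CPM in GFP libraries. It was thus abundant in 2 Caspase3 libraries and at 0.569 CPM or less in the other 4, and it did not pass (adjusted p = 0.0522 in edgeR). Slc6a20a, a proline and imino acid carrier, had 42.8, 16.6 and 42.5 CPM in Caspase3 libraries, against 27.7, 13.3 and 21.0 CPM in GFP libraries (log2 fold change 0.72, adjusted p = 0.536).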

How the data were processed

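Poly(A) RNA of piriform cortex from 6 libraries (3 Caspase3, 3 GFP, grouped by sample titles) was analysed from the deposited tables. The authors deposited raw read counts per gene and, per the file headers, FPKM values with gene coordinates and lengths. The submitters' processing notes name HISAT2, featureCounts and DESeq2, with mm10 and GRCm38 as builds. Their parameters and the strand setting of the counting are not given in the sources used here. Counts were tested by edgeR's quasi-likelihood test (version 4.0.16 under R 4.3.3, after filterByExpr and TMM scaling, on all 6 libraries), with Benjamini-Hochberg adjustment over 16721 genes and a threshold of 0.05. CPM values use TMM-scaled library totals. The SE is the absolute log2 fold change divided by the square root of F. Ratios of FPKM were tested by exact permutation (SciPy 1.17.1). Exon overlaps came from GENCODE M21 (GRCm38), which gave all 7 members the same coordinates as the table.

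Members, lists and tests were chosen with earlier results of these data known. Named genes were the members, any changed gene or otherwise the 2 genes of lowest p per pathway list, and the 5 genes most alike to Gad2, Gad1 and Slc32a1, leaving out predicted genes. A gene that this rule names is not reported here. Slc6a12 and single marker genes were chosen for naming once their values were known. The alternatives comprised other scalings, DESeq2 1.42.0, limma-voom and limma 3.58.1 on log2(FPKM + 0.1) and log2(FPKM + 1), robust fitting, other filters, the sample number as a block, and libraries left out. On counts simulated for this comparison over 16721 genes, edgeR recovered 16.4% of genes changed 1.5-fold, 58.2% changed 2-fold and 89.4% changed 4-fold. Figures were drawn with Matplotlib 3.10.9.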

Additional observations from a re-analysis of the deposited data

How the results depend on the processing

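Gad2 passed in all 18 alternatives. Gad1, Slc32a1, Slc6a11, Slc6a13, Abat and Aldh5a1 kept their sign in all 18. Of these, Gad1 passed in 3, Slc6a13 and Aldh5a1 in 2 each, Slc32a1 in 1 and the other 2 in none. The number of members called, 1 in the reported fit, was 2 with DESeq2 (Gad2, Aldh5a1), 5 with no filter on low counts (Gad2, Gad1, Slc32a1, Aldh5a1 and, higher, Slc6a13), and 1 to 2 with 1 library left out. Genes called over the whole table, 274 in the reported fit, numbered 497 with DESeq2, 170 with limma on log2(FPKM + 1), 913 with no filter, and 17 (without GFP replicate 2) to 285 with 1 library left out, with 144 without GFP replicate 3. Of the pathway genes, 0 in the reported fit, 1 was called with library totals and with DESeq2 (Slc6a5 in both), 3 with no filter, 2 without Caspase3 1 and GFP 3 together, and 0 to 2 with 1 library left out. With the sample number as a replicate block, 3 members passed (Gad2, Gad1 with adjusted p = 0.00902 and Slc6a13, higher, with 0.0286), with 421 genes and 1 pathway gene called. The labels do not say whether the numbers pair libraries. Deviations of same-numbered libraries correlated at 0.065, 0.18 and 0.027 across 16721 genes, and those of differently numbered libraries at -0.14 to 0.079. Not every library correlated best with its own number, and these values do not settle whether libraries were paired. The differences of log2 ratios changed sign with single libraries left out: Gad2 over Gad1 ranged from -0.38 to 0.14, Gad2 over Slc32a1 from -0.62 to 0.017 and Gad1 over Slc32a1 from -0.30 to 0.097, and these differences have no settled direction. The cause of these changes was not tested. All members had at least 195 counts per library, and the parts of depth and of spread between libraries in the precision were not separated.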

Other observations

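2 further SLC6 genes were set beside the leptomeningeal marker sum after their values had been seen. Slc6a20a ordered the 6 libraries as that sum and Slc6a13 did, with Caspase3 replicate 1 highest and GFP replicate 2 lowest. Slc6a12, which encodes a betaine carrier that also moves GABA, had 1.94, 0.546 and 2.56 CPM in Caspase3 libraries, against 1.49, 0.356 and 1.01 CPM in GFP libraries. It followed the same order apart from Caspase3 replicates 1 and 3, which changed places, and it did not pass (log2 fold change 0.85 ± 0.59, adjusted p = 0.682 in edgeR).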
